A study of Mus musculus with 6 samples.

Results

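The genes of the importins and nuclear transport receptors were examined in fully-grown oocytes (FGOs) at the germinal vesicle (GV) stage, when growth is over and meiosis is arrested in its first prophase. The group was defined by name, as 10 symbols out of the 24255 rows of the deposited table, and all 10 were found. It holds 6 importin alpha genes (Kpna1, Kpna2, Kpna3, Kpna4, Kpna6 and Kpna7), 2 import receptors of the importin beta family (Kpnb1 and Ipo5), the export receptor Xpo1 and the GTPase Ran. Wild type (WT) FGOs were compared with Lsm14b-KO FGOs in 3 RNA-Seq libraries each, with 20 oocytes per library. The Lsm14b-KO females were homozygous for Lsm14b tm1a(KOMP)Mbp, a reporter-tagged insertion carried in every tissue, on a C57BL/6J background. LSM14B is an RNA-binding protein of maternal ribonucleoprotein complexes. All females, WT and Lsm14b-KO, had received 5 IU of PMSG, a gonadotropin, 46 h before collection, and their age for these libraries is not given in the sources used here. The comparison asks how the stored mRNAs differ when LSM14B is missing.

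Proteins with a nuclear localization signal are bound by an importin alpha, which in turn is carried through the nuclear pore by importin beta 1, the product of Kpnb1. Ran in its GTP-bound form releases the cargo inside the nucleus and loads the export receptors, and its gradient around chromatin also guides spindle assembly in oocytes, which have no centrosomes. Mammals have several importin alpha genes with overlapping cargoes, and Kpna7 is a form found mainly in oocytes and early embryos, where Kpna2 is abundant too.

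Of the 10 genes, 6 reached 1 FPKM in at least 1 library and could be tested, and 2 of these 6 were past the threshold. Ran was 2.56-fold higher and Kpna3 was 2.60-fold lower in Lsm14b-KO FGOs, by the ratio of the mean FPKM. The fits covered all 6398 genes that passed the same filter, by limma on log2(FPKM + 1) with a Benjamini-Hochberg adjusted p under 0.05. FPKM is a fragment number scaled to transcript length and to the size of the library. Over all tested genes, 21.6% were past the threshold, 6.38% as higher and 15.2% as lower, so the count of 1 gene each way among 6 is not read as a result about the group. The share of higher among all calls, 29.5%, became 63.2% with the libraries brought to the same FPKM sum, 42.4% after quantile normalization and 45.1% after the length and GC correction. Values for Kpna2, Kpna7, Kpnb1 and Xpo1 had a higher fitted level without passing the test. Kpna1, Kpna4, Kpna6 and Ipo5 stayed under 1 FPKM in every library and were not tested. Over the 6 genes tested, the log2 fold changes had a median of 0.46, beside -0.08 over all tested genes. Kpnb1 and Xpo1 passed the filter only through Lsm14b-KO libraries, which favours higher fitted values. The median is therefore not read as a result about the group.

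**Figure D1:**
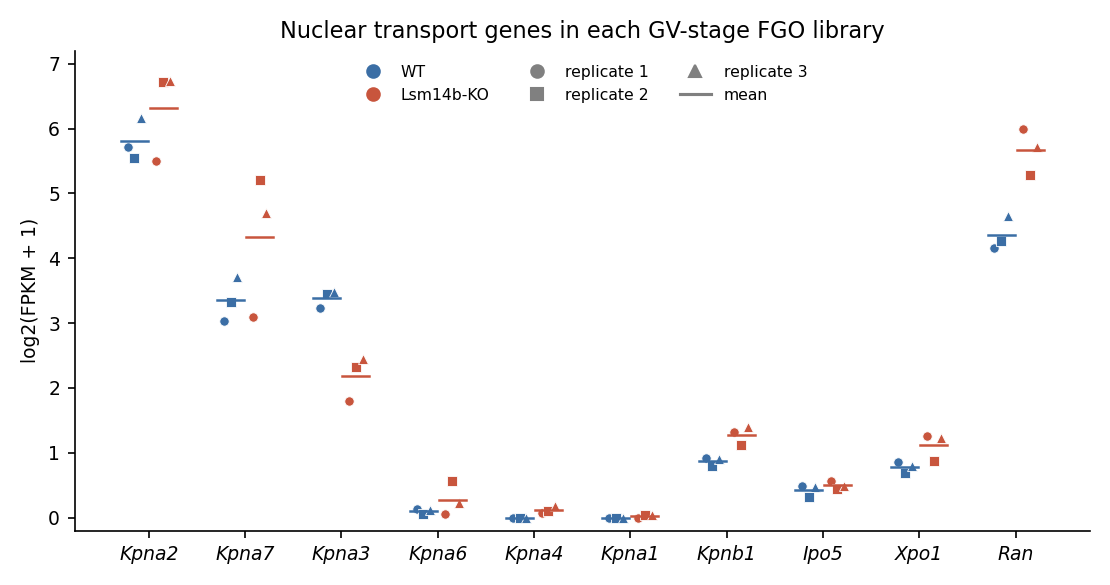
Level of each of the 10 genes as log2(FPKM + 1) in the 3 WT (blue) and 3 Lsm14b-KO (red) libraries, with a symbol per replicate and a line at the group mean. The groups are apart for Ran, Kpna3, Kpnb1, Xpo1 and, near 0, Kpna4, whereas for Kpna2 and Kpna7 Lsm14b-KO replicate 1 lies beside the WT libraries.

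The libraries were checked before single genes were read. Lsm14b itself had 2.77, 3.98 and 1.72 FPKM in the WT and 0, 0 and 0.10 FPKM in the Lsm14b-KO libraries, each in the order of replicates 1, 2 and 3, which is kept throughout. All 10 oocyte markers were above 1 FPKM, with a sum of 49340 to 61420 FPKM in WT and 31850 to 79510 FPKM in Lsm14b-KO libraries. The 10 cumulus and granulosa cell markers summed to 9.68 to 13.6 FPKM in WT and 6.13 to 10.0 FPKM in Lsm14b-KO libraries, with Cyp19a1 the highest of them in every library. These markers did not move together: Cyp19a1 fell, from 11.5, 8.26 and 10.5 to 5.47, 3.00 and 5.76 FPKM (limma adjusted p 0.0426). The values of Fshr, 1.68, 0.526 and 0.349 FPKM in WT, were 2.07, 1.91 and 1.82 FPKM in Lsm14b-KO libraries (limma adjusted p 0.0923), and Kitl, under 1 FPKM, was also higher without overlap. Their part in the differences of the transport genes was not tested. Of these 10, 3 reached 1 FPKM, and Amh, Foxl2 and Inhba were at 0 throughout. The 5 red blood cell and 3 leukocyte markers were at 0 in all libraries, and of the 4 markers of theca or stroma only Dcn was not at 0, with at most 0.33 FPKM. Relative depth, set to 1 in WT replicate 1, was 1.03 to 1.14 in the other WT libraries and 1.33 to 2.17 in the Lsm14b-KO libraries, while the FPKM sums were lower in the latter. Lsm14b-KO replicate 1 had a Pearson r of 0.952 to 0.954 with the WT libraries and of 0.917 and 0.96 with Lsm14b-KO replicates 2 and 3, across tested genes. Since it stood nearer to WT than the other Lsm14b-KO libraries did, results are also given without it. Of all 6398 tested genes, 1151 were then past the threshold as higher and 1747 as lower. With Lsm14b-KO replicate 1 kept in, these numbers were 408 and 975. Leaving out a library for being near to WT favours larger differences, so a call made only without it is not read as a result. The part of depth and of this library in the differences between groups was not tested otherwise. In pooled oocytes, less RNA per cell and fewer cells that express a gene cannot be told apart. The labels do not say whether the libraries came from separate animals, so the p-values measure the spread between these libraries.

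Ran is the GTPase that gives nuclear transport its direction. The gene lies on chromosome 5, 129020069 to 129024323, plus strand (GRCm38, the assembly also called mm10), and has 7 exons. It had 17.0, 18.3 and 24.0 FPKM in WT and 62.4, 38.0 and 51.5 FPKM in Lsm14b-KO FGOs. All Lsm14b-KO values lay above all WT values, as was the case for 19.1% of all tested genes. The mean was 19.8 ± 3.75 FPKM in WT and 50.6 ± 12.2 FPKM in Lsm14b-KO FGOs (SD, n = 3 each), and Ran rose by 1.30 ± 0.30 (SE) on the log2 scale (limma adjusted p 0.022). The fit kept its sign in 15 of 15 alternatives and its call in 11 of them. The call was lost without any single WT library and without Lsm14b-KO replicate 3 (limma adjusted p 0.0602 to 0.107), and held without Lsm14b-KO replicate 1 (log2 fold change 1.14, limma adjusted p 0.00906). Of all 6398 tested genes, the fits that lost it called 39 to 82 higher, beside 408 as reported. The fit without Lsm14b-KO replicate 1 called 1151 higher.

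The table also holds Rasl2-9, a gene with a single exon and a sequence close to that of Ran, on chromosome 7, 5124938 to 5125950, minus strand. Its coding sequence has the 648 nt of that of Ran, without a gap, and differs at 35 of them (94.6% identity). The longest run of identical coding bases was 77 nt, which is shorter than a read of 150 nt. Over the aligned transcripts 940 of 1001 bases were identical, and runs outside the coding sequence were not measured. The 120 nt window within 1 coding exon of Ran that holds the most differences, 11, is shown. Fragments that cover it can be told apart by these bases, which need not hold elsewhere. Coding bases 301 to 420 are given, in the orientation of the mRNA and in lower case, with the bases that differ in capitals, from GENCODE transcripts on GRCm38.
Ran, chr5:129022056-129022175, plus strand: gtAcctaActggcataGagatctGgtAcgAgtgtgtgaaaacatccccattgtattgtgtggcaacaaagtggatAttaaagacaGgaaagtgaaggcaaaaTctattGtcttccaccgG
Rasl2-9, chr7:5125510-5125629, minus strand: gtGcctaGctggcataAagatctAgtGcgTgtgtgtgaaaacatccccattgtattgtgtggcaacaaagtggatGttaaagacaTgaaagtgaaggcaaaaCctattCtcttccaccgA

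Rasl2-9 went the other way from Ran. It had 75.3, 85.4 and 65.8 FPKM in WT and 12.2, 9.87 and 7.77 FPKM in Lsm14b-KO FGOs. The mean fell 7.58-fold, from 75.5 ± 9.81 in WT to 9.96 ± 2.23 FPKM (SD, n = 3 each). The fitted log2 change was -2.82 ± 0.28 (SE, limma adjusted p 0.00121), and the call was kept in 15 of 15 alternatives. WT libraries thus had more Rasl2-9 than Ran, and Lsm14b-KO libraries more Ran than Rasl2-9. Within a library the ratio of the genes does not depend on how the library was scaled. It can still depend on transcript length and GC content. With the length and GC correction the log2 fold change of Rasl2-9 was -2.20 and that of Ran 1.35, beside -2.82 and 1.30 as reported. Ran made up 18.4%, 17.7% and 26.8% of the summed FPKM of both genes in the WT libraries and 83.6%, 79.4% and 86.9% in the Lsm14b-KO libraries. This share was chosen after the values were seen and is given with no test. The sum of both was 89.8 to 104 FPKM in WT and 47.9 to 74.6 FPKM in Lsm14b-KO libraries, without overlap. Unlike the share, this sum depends on how the libraries were scaled. The FPKM summed over all genes was also lower in Lsm14b-KO libraries, 564671 to 1029728 against 1141324 to 1244182 in WT. Whether the combined level of the 2 genes differs beyond that was not tested. How the authors' aligner divided fragments that match both genes is not given in the sources used here, so the level of each is uncertain to that extent. A further copy, 1700009N14Rik, was listed at 0 in all 6 libraries, and the annotation holds a Ran pseudogene, Gm13461 (97.3% identity over 662 nt), that is not among the symbols of the table used here.

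**Figure D2:**
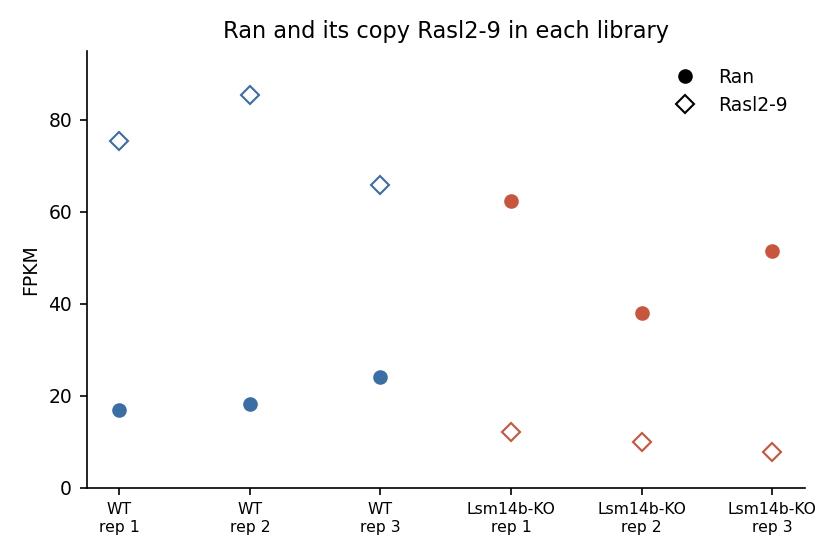
FPKM of Ran (filled circles) and of Rasl2-9 (open diamonds) in each of the 3 WT (blue) and 3 Lsm14b-KO (red) libraries. Rasl2-9 is above Ran in each WT library (65.8 to 85.4 FPKM) and below it in each Lsm14b-KO library (7.77 to 12.2 FPKM).

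Among the importin alpha genes, Kpna2 was the most abundant in every library. Kpna2 (chromosome 11, 106988629 to 106999541, minus strand) had 51.5, 45.8 and 70.6 FPKM in WT and 44.1, 104 and 106 FPKM in Lsm14b-KO FGOs. The groups overlapped, since Lsm14b-KO replicate 1 was the lowest of all 6 libraries and the other Lsm14b-KO libraries were the highest. The means were 55.96 ± 12.99 in WT and 84.5 ± 35.0 FPKM in Lsm14b-KO FGOs (SD, n = 3 each). The log2 fold change was 0.51 ± 0.41 (SE), with a 95% interval of -0.43 to 1.44 (limma adjusted p 0.366). Without Lsm14b-KO replicate 1 it was 0.92 (limma adjusted p 0.0185), the only 1 of 15 alternatives that was past the threshold. That fit called 1151 of all 6398 tested genes higher, beside 408 as reported, so this call is not read as a result. Kpna2 values are uncertain, because 5 copies with at least 95% identity are annotated, among them Gm10184 at 99.9% identity over 1968 nt. None of the 5 is among the symbols of the table used here.

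Kpna7, the importin alpha of oocytes and early embryos, was likewise high in Lsm14b-KO replicates 2 and 3 but not in replicate 1. Kpna7 (chromosome 5, 144983519 to 145084030, minus strand, overlapping 6 annotated genes, 4 of them on the other strand) had 7.23, 8.98 and 12.2 FPKM in WT. In Lsm14b-KO FGOs it had 7.52, 36.0 and 24.8 FPKM. Lsm14b-KO replicate 1 lay inside the WT range, and the other Lsm14b-KO libraries lay above all WT values. The means were 9.45 ± 2.496 and 22.8 ± 14.4 FPKM (SD, n = 3 each). The log2 fold change was 0.97 ± 0.52 (SE), with a 95% interval of -0.23 to 2.17 (limma adjusted p 0.195), which leaves room for a fall as well as a large rise. Without Lsm14b-KO replicate 1 it was 1.59 (limma adjusted p 0.00453), and none of the other 14 alternatives was past the threshold. The fit without that library called 1151 of all 6398 tested genes higher, beside 408 as reported, so its call is not read as a result. The labels do not say whether the libraries are stranded, so fragments from genes on the other strand cannot be set aside.

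Kpna3 fell, unlike Kpna2 and Kpna7, whose fitted changes were above 0. Kpna3 (chromosome 14, 61365211 to 61439874, minus strand, overlapping no other annotated gene), an importin alpha of the same subfamily as Kpna4, had 8.36, 9.88 and 10.2 FPKM in WT and 2.47, 4.03 and 4.45 FPKM in Lsm14b-KO FGOs. Each Lsm14b-KO library was below every WT library, which held for 26.0% of all tested genes. The WT mean was 9.48 ± 0.98 and the Lsm14b-KO mean 3.65 ± 1.04 FPKM (SD, n = 3 each), a log2 change of -1.19 ± 0.25 (SE, limma adjusted p 0.0157). No copy with at least 95% identity over 200 nt was annotated. The sign held in 15 of 15 alternatives and the call in 10. The call was lost when the FPKM sums were made equal (log2 fold change -0.59, limma adjusted p 0.239), without any single WT library and without Lsm14b-KO replicate 3 (limma adjusted p 0.0528 to 0.0747). That scaling moved the median of all tested genes from -0.08 to 0.40, and relative to the median Kpna3 was at -1.12 as deposited and at -0.99 after it. The fits without a WT library or Lsm14b-KO replicate 3 called 276 to 380 of all 6398 tested genes lower, beside 975 as reported.

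**Figure D3:**
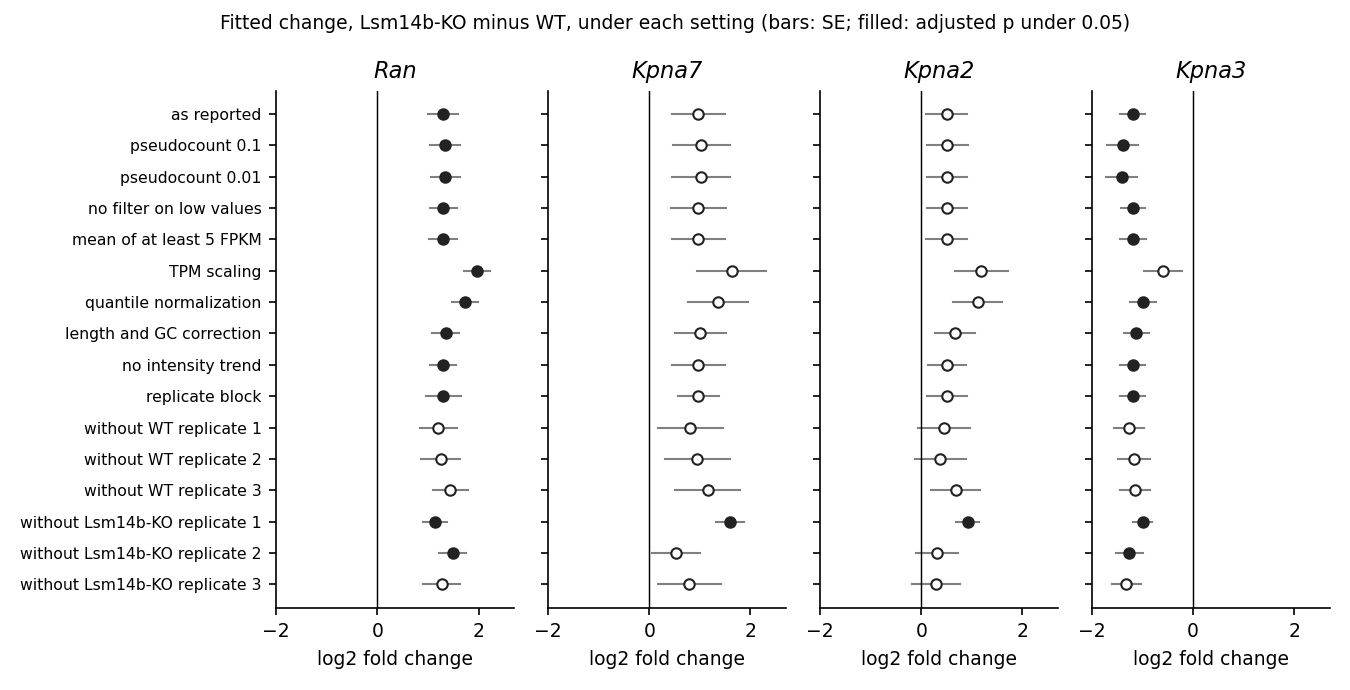
Log2 fold change of Ran, Kpna7, Kpna2 and Kpna3 (x axis, Lsm14b-KO minus WT, bars 1 SE) under each setting (rows), filled where the adjusted p was under 0.05. Ran stays above 0 and Kpna3 below 0 in every row, and Kpna7 and Kpna2 are filled only without Lsm14b-KO replicate 1.

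The other importin alpha genes were barely detected in these libraries. Kpna1, Kpna4 and Kpna6 have transcripts of 5039, 3726 and 5710 nt, beside 2054 nt for Kpna2. How transcript length bears on levels compared between genes was not tested. Kpna1 was listed at 0 in the WT libraries and in Lsm14b-KO replicate 1, and replicates 2 and 3 had 0.034 and 0.031 FPKM. For Kpna1, Kpna4, Kpna6, Ipo5 and Cse1l the values were whole multiples of what 1 fragment is worth at the relative depths, but for Kpnb1, Xpo1 and some other low genes they were not, and no fragments are given for those. The 2 values of Kpna1 stand for 1 fragment each. Kpna4 was listed at 0 in the WT libraries and at 0.055, 0.074 and 0.13 FPKM in Lsm14b-KO FGOs, which stand for 1, 2 and 4 fragments. A count of 0 allows up to 3 fragments, that is 0.191 to 0.218 FPKM of Kpna4 in the WT libraries, so a difference was not detectable at this depth. Kpna6 had 0.092, 0.041 and 0.09 FPKM in WT and 0.035, 0.474 and 0.17 FPKM in Lsm14b-KO FGOs. These values stand for 2, 1 and 2 fragments in WT and 1, 20 and 8 fragments in Lsm14b-KO libraries, so the higher Kpna6 mean rests on Lsm14b-KO replicates 2 and 3. Fragment numbers were taken as whole within 0.05, cover counting error only, and come from PCR-amplified cDNA, whose fragments are not independent molecules. A value of 0 can also be a failed estimate.

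The make-up of the importin alpha mRNA pool was compared next. Each gene was given as its share of the FPKM summed over the 6 importin alpha genes of a library. The scaling of the library leaves this share as it is. Every share still holds the uncertain Kpna2 values in its sum and depends on transcript length. Kpna2 took 76.7%, 70.8% and 75.9% in WT FGOs and 81.4%, 71.9% and 78.1% in Lsm14b-KO replicates 1, 2 and 3, with overlap. Kpna3 took 12.4%, 15.3% and 11.0% in the WT and 4.57%, 2.79% and 3.29% in the Lsm14b-KO libraries. The share of Kpna3 was thus lower in each Lsm14b-KO library, 12.9% ± 2.19 against 3.55% ± 0.92 (SD, n = 3 each), a difference of -9.34 percentage points. The exact permutation test gave a two-sided p of 0.10 for it (0.30 adjusted over the 6 shares), and 0.10 is the smallest that 3 libraries against 3 allow. Kpna7 took 10.8%, 13.9% and 13.1% in WT FGOs and 13.9%, 24.9% and 18.4% in Lsm14b-KO libraries, and its groups overlapped at replicate 1 (exact permutation p 0.20, 0.40 adjusted). The rank of these genes differed accordingly: Kpna3 and Kpna7 had overlapping ranges in WT, with means of 9.48 and 9.45 FPKM, whereas Kpna7 was above Kpna3 in each Lsm14b-KO library. Kpna1, Kpna4 and Kpna6 together were under 1% in every library. The summed importin alpha level was 67.2, 64.7 and 93.0 FPKM in WT and 54.1, 144 and 135 FPKM in Lsm14b-KO FGOs, with overlap.

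**Figure D4:**
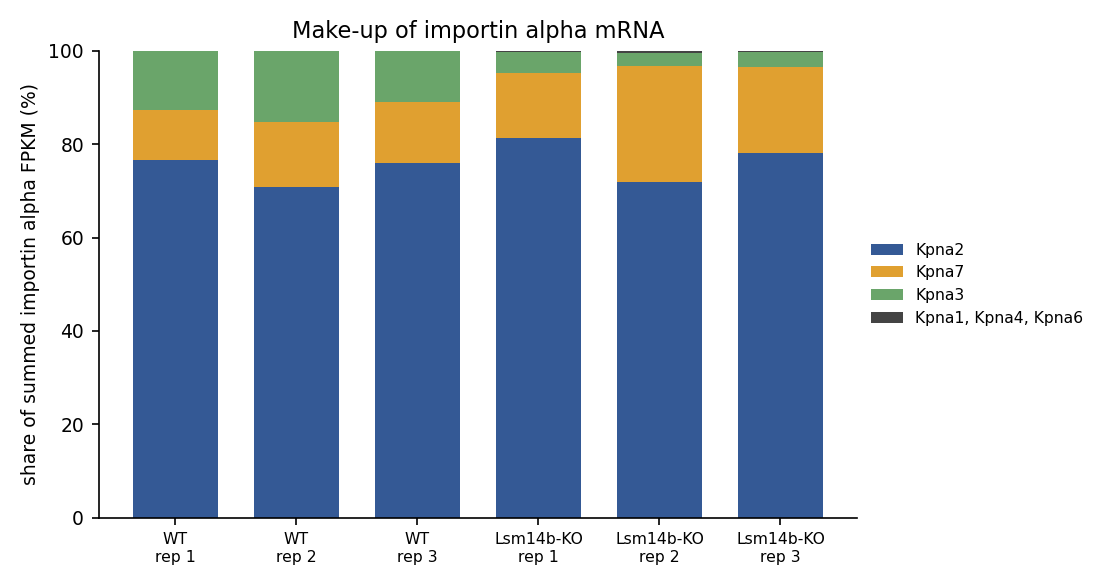
Share of the summed importin alpha FPKM (y axis, percent) taken by each gene in each of the 6 libraries (bars). The green part, Kpna3, is 11.0% to 15.3% in WT and 2.79% to 4.57% in Lsm14b-KO libraries, and the blue part, Kpna2, is the largest throughout.

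The receptors that carry importin alpha and other cargo were listed at far lower levels than Kpna2. Kpnb1 and Xpo1 have transcripts of 5894 and 5145 nt, beside 2054 nt for Kpna2, and the part of length was not tested. Kpnb1 (chromosome 11, 97159714 to 97187881, minus strand), which encodes importin beta 1, had 0.889, 0.741 and 0.865 FPKM in WT and 1.51, 1.16 and 1.64 FPKM in Lsm14b-KO FGOs. The groups did not overlap, but the log2 fold change of 0.41 was not past the threshold (95% interval -0.02 to 0.84, limma adjusted p 0.139). Across the alternatives it ran from 0.17, with the length and GC correction, to 0.79, with equal FPKM sums. The medians of all tested genes in these fits were 0.10 and 0.40. An antisense transcript, Gm11583, overlaps Kpnb1. Xpo1 (chromosome 11, 23256041 to 23298249, plus strand), the export receptor of proteins with a leucine-rich signal, had 0.81, 0.616 and 0.735 FPKM in WT and 1.38, 0.832 and 1.34 FPKM in Lsm14b-KO libraries. Its groups did not overlap either, with a log2 fold change of 0.34 (95% interval -0.12 to 0.79, limma adjusted p 0.231). Neither gene was past the threshold in any of 14 alternatives. Ipo5, an import receptor of ribosomal and other proteins, had 0.405, 0.254 and 0.394 FPKM in WT and 0.48, 0.357 and 0.40 FPKM in Lsm14b-KO libraries, which stand for 7, 5 and 7 and for 11, 12 and 15 fragments. The ranges of Ipo5 overlapped. In all, 4 of the 6 tested genes had groups that did not overlap, 3 higher and 1 lower, beside 45.0% of all tested genes. Among the higher ones, Kpnb1 and Xpo1 had passed the filter only through Lsm14b-KO libraries, so this count is not read as a result.

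In the order of levels, Kpna2 was followed in WT by Ran, then by Kpna3 and Kpna7, which overlapped, then by Kpnb1 and Xpo1, which overlapped, and by Ipo5. In Lsm14b-KO libraries Kpna2 and Ran overlapped at the top, followed by Kpna7, Kpna3, and Kpnb1 and Xpo1, which again overlapped. This order holds for FPKM, and how it depends on transcript length was not tested.

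Other genes of the pathway were counted from a list of 26: import and export receptors, the snurportin gene Snupn, and factors of the Ran cycle. Of these, 7 could be tested, 1 was past the threshold as higher and 0 as lower in limma (2 at an unadjusted p under 0.05), with a median log2 fold change of 0.40. Over all 6398 tested genes 21.6% were past the threshold and 2518 had an unadjusted p under 0.05, so these counts are not read as a result about the list. Cse1l, Rangrf, Ranbp2 and Tnpo1 passed the filter only through Lsm14b-KO libraries, which favours higher fitted values. The median is therefore not read as a result either. Cse1l, the exporter that returns importin alpha to the cytoplasm, had 0.60, 0.526 and 0.364 FPKM in WT and 1.30, 1.46 and 1.17 FPKM in Lsm14b-KO libraries, or 8, 8 and 5 against 23, 38 and 34 fragments. All Lsm14b-KO values were above all WT values, as for 19.1% of all tested genes. The log2 change was 0.63 ± 0.19 (SE, limma adjusted p 0.047). This call was narrow: it was lost in 9 of 14 alternatives, among them the fits without any 1 library other than Lsm14b-KO replicate 1 (limma adjusted p 0.0982 to 0.123) and the fit with a replicate block (limma adjusted p 0.0816). Of all tested genes, those fits without 1 library called 39 to 195 higher, beside 408 as reported. The other gene at an unadjusted p under 0.05 was Rangrf, named after its values were seen, with 0.545, 0 and 0 FPKM in WT and 0.689, 1.11 and 1.85 FPKM in Lsm14b-KO libraries (limma adjusted p 0.0527). It was past the threshold in 3 of 14 alternatives, with equal FPKM sums, with the length and GC correction and without Lsm14b-KO replicate 1 (limma adjusted p 0.0184 to 0.0418), and the range over all 14 was 0.0184 to 0.18. Snupn, which encodes the adaptor that imports spliceosomal snRNPs, was the most abundant gene of the list, with 155, 157 and 176 FPKM in WT and 154, 98.2 and 114 FPKM in Lsm14b-KO libraries. Its 3 Lsm14b-KO libraries were below the WT libraries, as for 26.0% of all tested genes, replicate 1 by under 1 FPKM. Its log2 fold change of -0.43 was not past the threshold (limma adjusted p 0.296) and turned to 0.25 under scaling to the same FPKM sum and to 0.17 under quantile normalization. The other 19 genes of the list were under 1 FPKM in every library.

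**Figure D5:**
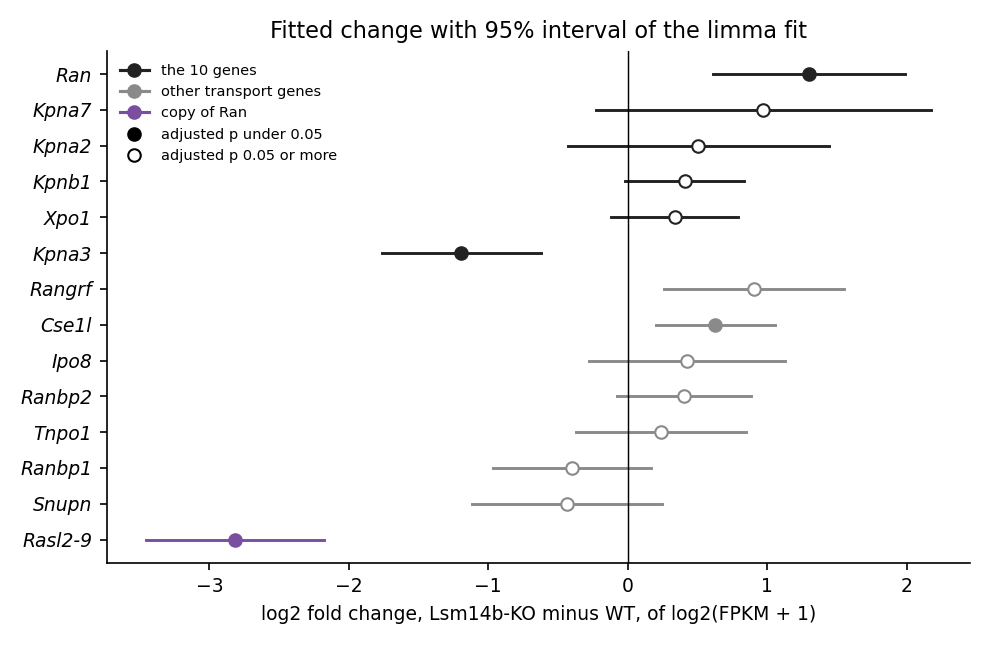
Log2 fold change (x axis, Lsm14b-KO minus WT, on log2(FPKM + 1)) with the 95% interval of the limma fit for the 6 tested genes (black), 7 other transport genes (grey) and Rasl2-9 (purple), filled where the adjusted p was under 0.05. Intervals clear of 0 with filled symbols are those of Ran, Kpna3, Cse1l and Rasl2-9, of which Cse1l passed the filter only through Lsm14b-KO libraries.

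For Ran and Kpna3, the tested genes of at least 5 FPKM with the most similar course over the 6 libraries were sought, by the root mean square difference of their log2 deviations from the WT mean. Nearest to Ran among 2559 genes were Prdx6 (difference 0.16), Lonrf3 (0.17) and Gm20362 (0.19), beside a median of 1.31 over all these genes. Nearest to Kpna3 were Ctnnal1 (0.11), Lmo1 (0.14) and Pin1rt1 (0.17), beside a median of 0.88. Lmo1, for example, had 183, 179.6 and 215 FPKM in WT and 71.3, 105 and 107 FPKM in Lsm14b-KO FGOs, the lowest being replicate 1 as for Kpna3.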

How the data were processed

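Per the labels, the authors removed adaptors and low-quality bases, aligned to mm10 with TopHat2 (version 2.0.13) and calculated FPKM with Cufflinks (version 2.2.1), in 1 column per library. The labels also name Cuffnorm, and any scaling it made between libraries was not examined. The annotation is not given in the sources used here. The deposited fold changes, p-values and q-values are the authors' own comparison by cuffdiff and were not used. Groups came from the sample titles. The 10 genes and the lists were chosen with earlier results of these data known. The genes named are the 10, Lsm14b, other transport genes past the threshold or with a mean of at least 20 FPKM, and the 3 genes nearest to each of the 10 that was past the threshold. Rangrf, Ranbp1, Ranbp2, Ipo8, Tnpo1 and the cumulus markers were named after their values were seen. Rasl2-9 and 1700009N14Rik were listed as copies of Ran.

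Each gene that reached 1 FPKM in 1 or more libraries was fitted as log2(FPKM + 1) with limma 3.58.1 in R 4.3.3 (eBayes with an intensity trend, genotype as the only term, two-sided), tested first on simulated data. This scale understates changes of low values. Depth is known only as a ratio, from the commonest ratio of values under 0.2 FPKM, and includes any scaling made between libraries. Copies were sought with blastn 2.17.0 (at least 95% identity over 200 nt) and positions taken from GENCODE vM21. Transcript length and GC content, for the loess correction, were found for 6318 (98.75%) of the tested genes.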

Additional observations from a re-analysis of the deposited data

How the results depend on the processing

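The member counts were 1 higher and 1 lower in the fit as reported, in the fit with the replicate block, and under both other pseudocounts, both other filters, quantile normalization, the length and GC correction and the fit without an intensity trend. With every library scaled to the same FPKM sum, 0 were lower. Leaving out 1 library gave 0 to 3 higher and 0 to 1 lower, and the 3 higher, without Lsm14b-KO replicate 1, were Ran, Kpna2 and Kpna7. Over all 6398 tested genes, leaving out 1 library gave 39 to 1151 higher and 276 to 1747 lower, the most without Lsm14b-KO replicate 1. Of the other transport genes, 1 was higher as reported. That count was 0 without the filter, at a mean of at least 5 FPKM, under quantile normalization, without the intensity trend and with the replicate block, 2 (Cse1l and Rangrf) under equal FPKM sums and under the length and GC correction, and 0 to 3 when 1 library was left out, the 3, without Lsm14b-KO replicate 1, being Cse1l, Rangrf and Ipo8. The count lower was 0 to 1 when 1 library was left out, the 1 being Snupn without Lsm14b-KO replicate 1. The fitted change of Snupn turned to 0.25 and 0.17 under equal FPKM sums and quantile normalization, and that of Ranbp1 to 0.13 and 0.18 under equal FPKM sums and the length and GC correction. With FPKM multiplied by transcript length, the difference in share was 7.58 percentage points for Kpna2 and -15.7 for Kpna3, as longer transcripts then weigh more. The difference of Kpna6 turned to -0.0037 percentage points without Lsm14b-KO replicate 2. The cause of these changes was not tested beyond what each setting does.

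The labels link same-numbered libraries by number only, so whether they were paired is not known. The correlations of their deviations from the group means were 0.19, -0.128 and 0.018 for replicates 1, 2 and 3. Not every library correlated best with its own number, but with 3 libraries per group this cannot decide on pairing. The replicate block left the member counts at 1 and 1 and took that of the other transport genes from 1 to 0. Without a true depth, the precision of single FPKM values is known only for the genes at a few fragments.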
